A study of Rattus norvegicus with 22 samples.

Results

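The genes described here encode the cornified envelope, the protein shell of the dead outer cells of a stratified epithelium, and enzymes of the last steps of keratinocyte differentiation. They are 10 genes, found by their symbol among the probes of the array: Ivl, Lor, Cnfn, Sprr1b, Sprr3, Tgm1, Tgm3, Evpl, Ppl and Casp14. All 10 were on the array, each with 1 probe, out of 30367 probes in all. None of them was absent, and with 1 probe each no choice of probe by signal was needed. The list itself was chosen with earlier results of these data known.

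In a stratified squamous epithelium, keratinocytes leave the basal layer, stop dividing and build the envelope beneath the plasma membrane as they move outward. Plakins such as envoplakin and periplakin form the first scaffold, involucrin, loricrin, cornifelin and the small proline-rich proteins are laid onto it, and transglutaminases join them by covalent bonds. The dorsal tongue of the rat is a keratinized epithelium with filiform papillae, and many of the precursor genes lie in 1 cluster, the epidermal differentiation complex.

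Tongue tissue from 11 male F344 rats was measured, 1 piece of oral squamous cell carcinoma (OSCC) and 1 piece of adjacent normal tissue from each, 22 arrays in all. The rats had received 4-nitroquinoline 1-oxide (4-NQO), a carcinogen that forms DNA adducts, in their water for 10 weeks at 20 ppm, and tissue was taken 23 to 26 weeks after the first exposure, at an age of about 33 weeks. Every sample title, of either tissue, says untreated, and by its label a normal piece had no 4-NQO, but the protocol and the study's methods draw both pieces from 1 exposed rat, and that reading is used here. Tissue from rats that never received 4-NQO was not analysed here, and the pieces were whole tissue, so the normal pieces hold epithelium, muscle and connective tissue in unknown shares.

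The promoters of 4 genes are printed as examples from 2 patterns described later, Lor for the variation among normal pieces, and Sprr1b, Cnfn and Tgm1 for the variation among carcinomas. They were picked after the values were seen, and Sprr3 and Ivl varied more than Lor among normal pieces. Each runs from 250 bases before to 50 bases after the RefSeq start of the gene on assembly GRCr8, 5′ to 3′ on the strand of the gene, with motif matches on either strand in capitals. The first motif is the TATA box, spelled TATAAA. Another is the site of AP-1, the Jun and Fos factors, spelled TGANTCA with N for any base. A further one is the GC box of Sp1-type factors, spelled GGGCGG. The motif of the grainyhead-like factors, spelled AACNGGTT, was also searched. None of the motifs overlap in these promoters.
Lor (chr2:180256523-180256822, minus strand): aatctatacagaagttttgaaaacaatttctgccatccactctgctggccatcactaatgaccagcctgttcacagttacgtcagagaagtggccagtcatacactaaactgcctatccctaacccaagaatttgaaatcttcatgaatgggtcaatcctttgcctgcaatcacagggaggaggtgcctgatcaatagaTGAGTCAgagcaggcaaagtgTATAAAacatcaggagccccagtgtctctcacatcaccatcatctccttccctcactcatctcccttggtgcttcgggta
Sprr1b (chr2:180706306-180706605, minus strand): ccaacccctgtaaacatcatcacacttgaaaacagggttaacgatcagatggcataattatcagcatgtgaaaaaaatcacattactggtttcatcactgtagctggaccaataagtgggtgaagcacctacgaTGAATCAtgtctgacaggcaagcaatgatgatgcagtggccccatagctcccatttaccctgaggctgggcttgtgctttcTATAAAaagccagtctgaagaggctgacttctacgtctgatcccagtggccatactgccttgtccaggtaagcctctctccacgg
Cnfn (chr1:90081507-90081806, minus strand): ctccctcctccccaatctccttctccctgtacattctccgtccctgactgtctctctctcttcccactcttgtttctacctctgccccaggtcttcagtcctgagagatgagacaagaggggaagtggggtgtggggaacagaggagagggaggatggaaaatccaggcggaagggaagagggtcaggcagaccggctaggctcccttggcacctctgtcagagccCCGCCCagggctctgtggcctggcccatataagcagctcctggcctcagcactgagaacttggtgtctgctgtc
Tgm1 (chr15:33174218-33174517, minus strand): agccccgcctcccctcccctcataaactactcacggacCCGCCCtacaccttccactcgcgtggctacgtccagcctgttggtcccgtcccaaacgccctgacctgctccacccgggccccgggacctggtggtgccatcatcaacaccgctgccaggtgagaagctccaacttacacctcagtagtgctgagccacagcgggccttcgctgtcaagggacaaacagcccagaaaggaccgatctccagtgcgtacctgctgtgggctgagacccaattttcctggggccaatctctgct
The promoter table held 8 of the 10 genes, without Sprr3 and Evpl. In Lor the AP-1 match began at position -51 and the TATA box at -30, counted from the start of the gene. In Sprr1b the same motifs began at -116 and -35. Lor and Sprr1b were the only 2 of the 8 promoters with an AP-1 match, against 7.33% of the 33469 promoters of the table, and Lor, Sprr1b and Tgm3 were the 3 with TATAAA, against 14.2%. The GC box stood in Cnfn, Tgm1 and Ppl, 3 of 8, against 33.1%, and the grainyhead motif in none of the 8, against 2.10%. These matches describe the letters of the windows and were not compared with any measured value.

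Signals are given as log2 of the processed signal over the 75th percentile of the array, so that 0 is the level of the 75th percentile probe and 1 unit is a 2-fold step. Before this scaling the percentile was 237 to 655 arbitrary units on the normal arrays and 339 to 1414 on those of OSCC, and 48.4% to 56.1% of probes were well above background in normal tissue and 52.3% to 65.5% in OSCC. A gene was called when limma, with rat and tissue as terms, gave a Benjamini-Hochberg adjusted p below 0.05 over all probes and a change of at least 2-fold. Of all probes 6.86% were called higher in OSCC and 6.97% lower. Of the 10 cornified envelope genes 9 were well above background on all 22 arrays, and Ivl was so on 6 normal and 11 OSCC arrays. No probe of the 10 shared a run of 16 or more bases with a probe of another gene on the array, which was checked because the small proline-rich genes are close relatives.

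Of the 10 genes, Sprr1b, Sprr3 and Cnfn were called higher in OSCC, none was called lower, and 7 were not called. Over all probes 6.86% were called higher and 6.97% lower. The median difference of the 10 was 0.88 on the log2 scale, against -0.24 over all probes and -0.08 over probes well above background on every array. In no gene did all OSCC arrays lie above all normal arrays. The share of such probes over the array was not counted, so nothing is read from this. In bulk tissue fewer cells of a type and less RNA per cell cannot be told apart.

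**Figure D1:**
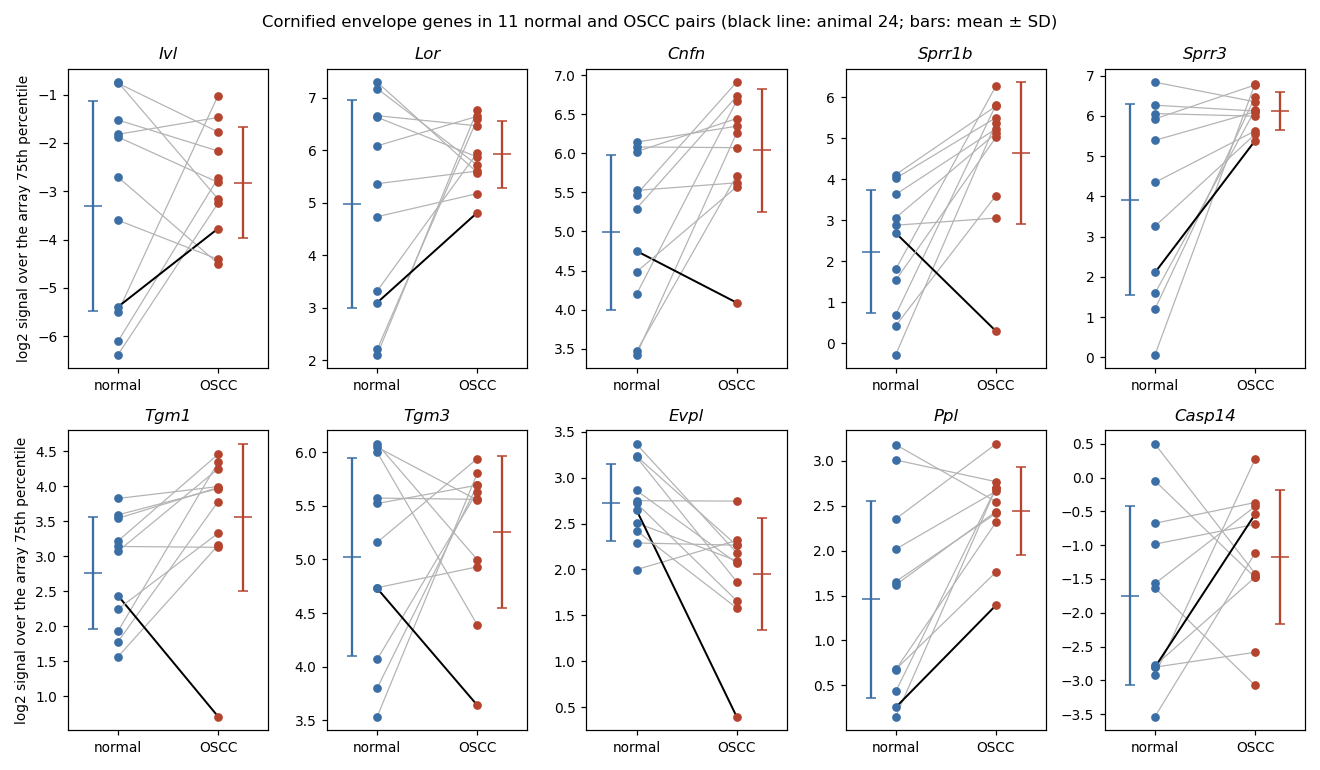
Log2 signal over the array's 75th percentile of each of the 10 genes in the 11 normal pieces (blue) and the 11 carcinomas (red), with lines joining the pieces of a rat, animal 24 in black, and bars giving mean ± SD. The normal pieces of Lor and Sprr3 spread over more than 5 log2 units while their carcinomas lie close together, and the carcinoma of animal 24 is the lowest of its group for 8 of the 10 genes, all but Ivl and Casp14.

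Sprr1b encodes a small proline-rich protein that bridges other envelope proteins and is known as a gene of squamous and stressed epithelium. Its probe lies at chr2:185418131-185418190 on assembly rn4, the build of the array. In normal tissue its signal ran from -0.28 through a median of 2.69 to 4.11, and in OSCC from 0.30 through 5.23 to 6.27. The groups overlapped only through the carcinomas of animals 17, 22 and 24, and 8 of 11 carcinomas lay above every normal piece. The level of Sprr1b rose 5.30-fold (log2 difference 2.40, SE 0.63, limma adjusted p = 0.011), and it was higher in 10 of 11 pairs. The exception was animal 24, whose carcinoma was lower by 2.39. Without that pair the difference was 2.88.

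Sprr3 is a longer relative of Sprr1b that is abundant in wet stratified epithelia such as the oesophagus and mouth. Its probe lies at chr2:185436598-185436657. The normal pieces ran from 0.07 through a median of 4.35 to 6.83, and the carcinomas from 5.38 through 6.12 to 6.80. The carcinomas thus lay within the upper part of the normal range, and none exceeded the highest normal piece. Sprr3 was 4.60-fold higher in OSCC (log2 difference 2.20, SE 0.66, limma adjusted p = 0.021) and higher in 8 of 11 pairs. The largest differences, 6.73 in animal 21, 5.27 in animal 22 and 4.55 in animal 11, belonged to the 3 lowest normal pieces. Without animals 21, 22 and 24, which the study describes as variable, the difference was 1.12 with adjusted p = 0.075, so the call was lost, as it was with normexp background correction at an adjusted p of 0.052.

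Cnfn encodes cornifelin, an envelope component of the upper layers, with its probe at chr1:80641400-80641459. It ran from 3.43 through 5.29 to 6.14 in normal tissue and from 4.09 through 6.26 to 6.91 in OSCC. Of the carcinomas 6 of 11 lay above every normal piece, and the carcinoma of animal 24 lay below the normal median. Cnfn was 2.07-fold higher (log2 difference 1.05, SE 0.32, limma adjusted p = 0.021), in 9 of 11 pairs. This difference stood just past the 2-fold limit. Leaving out animal 11, 21 or 22 brought it to 0.91, 0.87 or 0.93, under that limit, as did scaling to the array median, at 0.85, and normexp, at 0.97.

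Lor encodes loricrin, the main protein of the envelope of keratinized epithelia, with its probe at chr2:184953840-184953899. Its normal pieces ran from 2.10 through a median of 5.36 to 7.296, and its carcinomas from 4.81 through 5.87 to 6.76. Every carcinoma lay inside the normal range. The difference was 0.96 with SE 0.59 and limma adjusted p = 0.19, a ratio of 1.94 with a 95% interval from 0.802 to 4.69, and 7 of 11 pairs were higher in OSCC. Pairs differed in sign, from -1.72 in animal 16 and -1.46 in animal 4 to 4.39 in animal 22 and 4.66 in animal 21.

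Ivl encodes involucrin, an early substrate laid down under the membrane, with its probe at chr2:185556302-185556361. It was dim throughout, from -6.38 through -2.71 to -0.75 in normal tissue and from -4.50 through -2.82 to -1.02 in OSCC. The 4 lowest normal pieces, those of animals 11, 21, 22 and 24, lay below every carcinoma, and the groups otherwise mixed. The difference was 0.49 with SE 0.63 (limma adjusted p = 0.53), and the interval of the ratio, 0.548 to 3.58, left room for a change of 2-fold or more upward. Only 5 of 11 pairs were higher in OSCC.

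Tgm1 encodes the membrane-bound transglutaminase that starts the crosslinking of the envelope, with its probe at chr15:33846599-33846658. It ran from 1.56 through 3.07 to 3.83 in normal tissue and from 0.71 through 3.97 to 4.46 in OSCC. Of the carcinomas 6 of 11 lay above every normal piece, while that of animal 24 lay below every normal piece. The difference was 0.80 with SE 0.31 and limma adjusted p = 0.055, so Tgm1 passed neither limit, although it was higher in 9 of 11 pairs. Without animal 24 it was 1.05 with adjusted p = 0.0052, past both.

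Tgm3 encodes the cytosolic transglutaminase that joins small precursors such as loricrin and the small proline-rich proteins, with its probe at chr3:117658703-117658762. It ran from 3.54 through 5.16 to 6.08 in normal tissue and from 3.64 through 5.56 to 5.94 in OSCC, with no carcinoma outside the normal range. The difference was 0.23 with SE 0.35 (limma adjusted p = 0.59), with an interval of the ratio from 0.693 to 1.998. It was higher in 6 of 11 pairs.

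The plakin genes differed in sign, and neither passed both limits. Evpl encodes envoplakin and Ppl periplakin, which pair to form the scaffold at the membrane and at desmosomes. Their probes lie at chr10:106336995-106337054 and chr10:10611292-10611351. Evpl ran from 1.999 through 2.72 to 3.37 in normal tissue and from 0.40 through 2.09 to 2.74 in OSCC, and 4 of 11 carcinomas lay below every normal piece. It was lower in 10 of 11 pairs (log2 difference -0.78, SE 0.21, limma adjusted p = 0.013), a 1.72-fold difference, under the fold limit.

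Ppl ran from 0.15 through 1.62 to 3.18 in normal tissue and from 1.39 through 2.55 to 3.19 in OSCC, and only the carcinoma of animal 26 lay just above the normal range. It was higher in 9 of 11 pairs (log2 difference 0.99, SE 0.26, limma adjusted p = 0.013), a 1.98-fold difference just below the fold limit. It passed the limit when any of animals 4, 9, 13, 16, 17 or 26 was left out, with differences of 1.11, 1.02, 1.01, 1.15, 1.00 and 1.00. In every pair the difference of Ppl exceeded that of Evpl, by 0.16 to 3.39 with a mean of 1.77 ± 0.88 (SD, n = 11), a contrast picked after its values were seen and given with no test.

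Casp14 encodes caspase-14, a protease of cornifying keratinocytes that helps to process filaggrin, with its probe at chr7:12489313-12489372. It ran from -3.53 through -1.63 to 0.49 in normal tissue and from -3.07 through -1.12 to 0.27 in OSCC, all carcinomas lying within the normal range. The difference was 0.58 with SE 0.46 (limma adjusted p = 0.31), with an interval of the ratio from 0.748 to 2.98, and 8 of 11 pairs were higher.

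**Figure D2:**
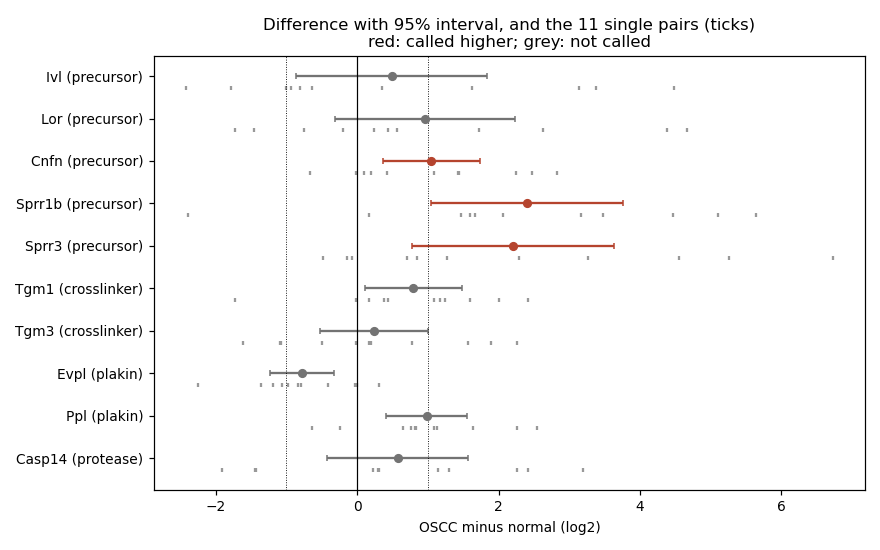
Log2 difference of OSCC from normal tissue for the 10 genes, with points and bars giving the limma estimate and its 95% interval, grey ticks the 11 single pairs, and dotted lines the 2-fold limits. Sprr1b at 2.40, Sprr3 at 2.20 and Cnfn at 1.05 were called higher, while Evpl is the only gene with a negative estimate, at -0.78.

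The tissues were hybridized on different slides, normal pieces on 3 and carcinomas on 4, and 9 of the carcinomas were scanned on a second day. No slide held both tissues, so an effect of slide and one of tissue cannot be told apart. With slide as a random block none of the 3 calls held, at adjusted p = 0.052 for Sprr1b, 0.067 for Sprr3 and 0.073 for Cnfn. The differences of 2.34, 2.10 and 1.02 in that model are not free of slide effects. The carcinomas of animals 4 and 9 were scanned on the day of all normal pieces, and the 2 pairs gave differences of 1.60 and 1.48 for Sprr1b, -0.15 and -0.07 for Sprr3, and -0.01 and 0.20 for Cnfn. With scan day as a term, whose tissue effect rests on those 2 pairs, the differences were 1.54, -0.11 and 0.10, none of the 10 genes was called, and at an unadjusted limma p below 0.05 none differed by the required size. Both of these rats had normal pieces among those with the highest envelope signal.

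The normal pieces varied widely in these genes and did so together. The SD over the 11 normal pieces was 2.37 for Sprr3, 2.17 for Ivl and 1.99 for Lor, against a median of 0.23 over probes well above background on all arrays. Ivl, well above background on only 6 normal arrays, is not among such probes, here or in the shares below, and its SD includes values near background. In OSCC the SDs of these genes were 0.47, 1.15 and 0.64, against a median of 0.39. For 7 of the 10 genes the SD was larger in normal tissue than in OSCC, whereas this was so for 17.9% of probes well above background on all arrays. Sprr3 had the widest contrast, with an SD 5.07 times larger in normal tissue, and Sprr1b, Tgm1 and Evpl were the exceptions. Their larger spread in OSCC came with the carcinoma of animal 24. Without it, an alternative chosen after the values were seen, their OSCC SDs were 1.00, 0.48 and 0.34, against 1.502, 0.80 and 0.42 in normal tissue, and the SD was larger in normal tissue for all 10 genes, against 22.2% of such probes.

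Much the same animals were high or low for most of the genes. The mean log2 signal over the 10 genes was lowest in the normal pieces of animals 21 (0.34), 22 (0.64), 11 (1.01) and 24 (1.45). It was highest in those of animals 16 (3.97), 4 (3.85), 9 (3.49) and 26 (3.28). Over the 45 pairs of genes, Pearson's r across the 11 normal pieces ran from 0.73 to 0.99 with a median of 0.93, all positive. These correlations are descriptions, since all genes of an array share its tissue piece, RNA and scaling.

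The normal pieces rich in envelope signal were also rich in keratins of the differentiated tongue epithelium. Across the 11 normal pieces the mean over the 10 genes had Pearson's r of 0.98 and Spearman's rho of 0.95 with Krt4, and 0.98 and 0.97 with Krt13, the keratin pair of the upper layers of wet mucosa. The values were 0.92 and 0.91 with the mean of 10 genes of filiform papillae, mostly hair-type keratins. With Krt5 and Krt14, the basal keratins, they were -0.40 and -0.29, and 0.19 and 0.15. With the mean of the 7 epithelial junction genes they were 0.72 and 0.72, and with that of the 8 basal keratinocyte genes -0.48 and -0.52. Krt5 itself stayed between 5.34 and 6.10 in the normal pieces. The part of epithelial content, sampling site or keratinization in this variation was not tested.

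**Figure D3:**
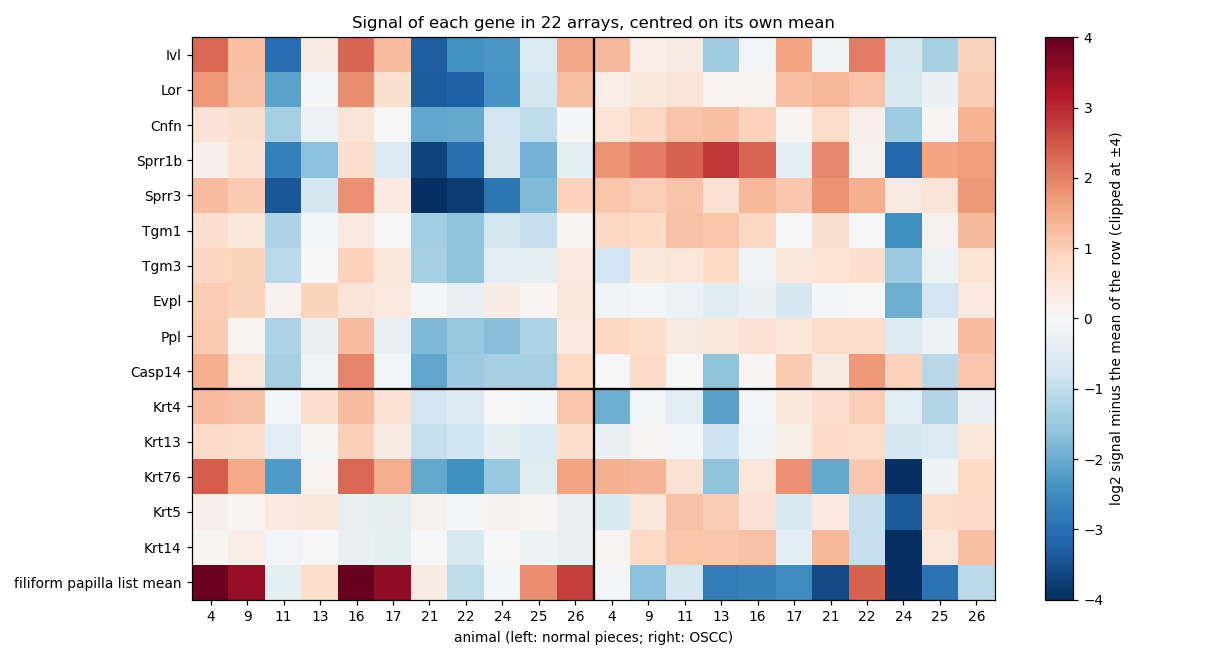
Log2 signal of the 10 genes, of 5 keratins and of the mean of the filiform papilla list in each of the 22 arrays, each row centred on its own mean, with columns by animal, normal pieces on the left and carcinomas on the right. The normal pieces of animals 11, 21 and 22 are low and those of 4, 9 and 16 high in most envelope rows, while Krt5 and Krt14 are even in normal tissue and drop in the carcinoma of animal 24.

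The mean over the genes was more even among the carcinomas, with 1 exception. It ran from 2.59 to 3.88 in 10 carcinomas and was 1.64 in that of animal 24. In that carcinoma the basal markers were low as well: Krt5 stood at 2.34, against 4.78 to 6.87 in the others, and Krt14 at 2.94, against 6.31 to 8.57. The mean log2 signal of the skeletal muscle list was 6.95 there, against 1.02 to 7.08 in the other carcinomas, that of the serous gland list 8.48, against -2.48 to 9.66, and that of the neutrophil list -2.99, against -2.21 to 1.23. The part of this makeup in its low envelope signal was not tested. Sprr3 and Lor, also the lowest of their group there, stood at 5.38 and 4.81, close to the next carcinomas at 5.54 and 5.17. The linear sum of 8 basal keratinocyte markers was 35.1 times the 75th percentile there, against 164 to 544 in the other carcinomas and 240 to 375 in normal tissue.

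Among the carcinomas the genes fell into looser sets. Sprr1b, Cnfn and Tgm1, whose promoters are printed with that of Lor, varied together, with Pearson's r of 0.92 for Cnfn and Sprr1b, 0.98 for Cnfn and Tgm1, and 0.95 for Sprr1b and Tgm1 over 11 carcinomas. Without animal 24 these were 0.73, 0.95 and 0.81. Other genes varied together as closely, among them Evpl and Ppl, with r of 0.93, and 0.88 without animal 24. For Ivl and Casp14 these values were 0.77 and 0.88. Sprr1b and Casp14 ran in opposite directions, with r of -0.53, and -0.66 without animal 24. Over all 45 pairs the range without animal 24 was -0.71, for Ivl and Sprr1b, to 0.95. The median was 0.40, in place of the uniformly high values of normal tissue.

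The differences within pairs were then correlated over the 11 rats for each of the 45 pairs of genes, with 100000 permutations and Benjamini-Hochberg adjustment over the 45. For 26 the adjusted p of Pearson's r was below 0.05, all with positive r, and for 21 that of Spearman's rho. All genes share the pieces and the scaling of a rat, and no share over other genes stands beside these counts. Lor and Sprr3 had the highest r, 0.98, with Spearman's rho of 0.95, a permutation p of 1e-05 for r, the smallest that these permutations can give, and an adjusted p of 0.00015. Ivl and Casp14, both dim and both low in the same normal pieces, had r of 0.90 and rho of 0.96. Sprr1b and Casp14 were unrelated over the pairs, at r of 0.00 and rho of 0.11 (permutation test, adjusted p = 0.99 for r).

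For each relation the 2 pairs farthest from the median of its first gene, in listed order, were left out, so the animals left out differed between relations. After that 18 relations had an adjusted p below 0.05 by an exact permutation test over the 9 remaining pairs. Lor and Sprr3 kept r = 0.95 and Cnfn and Tgm1 r = 0.97. Lor and Tgm3 dropped from 0.84 to 0.65 and Sprr1b and Tgm3 from 0.73 to 0.64, with an adjusted p of 0.11 for both by the exact permutation test over 9 pairs. Each difference holds the normal piece of the rat, and the normal pieces varied together as given above.

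The other genes of cornification were examined as a list of 62 genes found on the array, and the brightest probe of each was used. In OSCC 22 of the 62 were called higher and none lower, with a median difference of 0.39 against -0.24 over all probes, of which 6.86% were called higher and 6.97% lower. Of the 22 calls 15 held when any single pair was left out, and 7 did not. With scan day as a term none was called, and before adjustment 2 were past both limits upward and 2 downward. With slide as a random block 14 of the 62 were called higher. The genes that rose came from every role in the list but crosslinking.

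Of 20 further precursors and cornified layer proteins 8 rose. The largest was Lce3fl1, a late cornified envelope gene, 10.3-fold higher with a log2 difference of 3.37, SE 0.56 and limma adjusted p = 0.00097, in 11 of 11 pairs. Its normal pieces ran from -0.71 through 2.60 to 5.55 and its carcinomas from 3.62 through 6.29 to 6.78, which overlapped in part. The related Lce1m, Lce1d and Lce1f rose 4.28-fold, 3.64-fold and 2.11-fold. Flg, which encodes filaggrin, the keratin-bundling protein of keratohyalin granules, rose 3.71-fold, although it was well above background on only 4 normal arrays. Its call was lost when animal 4, 9, 11, 22, 25 or 26 was left out (adjusted p 0.056 to 0.078) and under quantile scaling (0.074). With normexp its log2 difference fell from 1.89 to 0.57 (limma adjusted p = 0.53). The call was also lost with slide as a random block (0.10). The call of Lce1f was lost without animal 9, 11, 21, 22, 25 or 26, with differences of 0.88 to 1.11, and that of Dmkn without animal 21, at 0.96. Sprr1a rose 2.54-fold, Anxa1, an annexin of the envelope, 2.36-fold, and Dmkn, a secreted dermokine, 2.20-fold.

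Among proteins of cell adhesion and shedding, Dsc1 and Dsg1, the desmosomal cadherins of the upper layers, rose 4.92-fold and 2.31-fold, 2 of 5 junction genes. Dsp, Pkp1 and Perp, further genes of desmosomes, had differences of -0.10, -0.27 and -0.26. Of 10 proteases and inhibitors 3 rose. They were Klk7 (7.93-fold, higher in 11 of 11 pairs) and Klk14 (4.41-fold), serine proteases that cut desmosomal cadherins as cells are shed, and Spink5 (2.74-fold, 11 of 11 pairs), which encodes their inhibitor. A dimmer second Klk7 probe was also called higher, with a log2 difference of 1.38 (limma adjusted p = 0.035), against 2.99 for the brightest. Capn1, a calpain, was lower in all 11 pairs by 0.89 (SE 0.11, limma adjusted p = 0.00027), under the fold limit.

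Of 13 genes of the lipid envelope and barrier lipids 6 rose. Cers3, the ceramide synthase of very long acyl chains, rose 2.80-fold, Pnpla1, which makes acylceramides, 3.39-fold, and Abhd5, its activator, 2.49-fold. Alox12b, a lipoxygenase that oxidizes these lipids, rose 2.46-fold, and its call was lost without animal 11, 13, 21, 22, 25 or 26 (adjusted p 0.053 to 0.071). Nipal4 and Lipn, a membrane protein and a lipase of the upper epidermis, rose 2.73-fold and 3.78-fold. Pnpla1 and Lipn were well above background on 7 and 6 of the normal arrays and on all OSCC arrays. With normexp background correction only the call of Cers3 held among these 6. Pnpla1, Abhd5, Nipal4 and Lipn then stood at 0.95, 0.85, 0.90 and 0.72, under the fold limit. Alox12b stood at 1.04 with a limma adjusted p of 0.14. Aloxe3, the partner enzyme of Alox12b, was not called, at -0.34 with SE 0.23.

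Of 5 regulators only Prdm1, a transcriptional repressor of terminal differentiation, rose, 2.18-fold, and without animal 11 it stood at 0.97, under the fold limit. Klf4 and Grhl3 had differences of 0.01 and 0.20. Of 8 suprabasal keratins Krt10 and Krt78 rose, 3.15-fold and 2.54-fold. The call of Krt10 was lost without animal 9, 11, 13, 21, 22, 25 or 26 (adjusted p 0.050 to 0.076), and that of Krt78 without animal 9, 11, 13, 22 or 25 (0.052 to 0.066). Krt1, the partner of Krt10, was not called, at 1.69 with SE 0.76 and adjusted p = 0.083, although higher in 9 of 11 pairs. Krt4, Krt13, Krt24 and Krt76 had negative differences of -0.82, -0.08, -1.75 and -0.11, none of them called. Tgm5, the only further crosslinker, did not stand well above background anywhere. For Asprv1, Elovl4, Grhl1 and Ovol1, 4 genes picked after their values were seen, a dimmer second probe was called higher while the brightest was not. The Grhl1 probes differed in sign, at -0.61 for the brightest and 1.36 for the other. The second Nipal4 probe, above background on no array, was at -0.48 and not called. With the mean of its probes Nipal4 was at 0.48 (limma adjusted p = 0.081), and its call was lost.

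**Figure D4:**
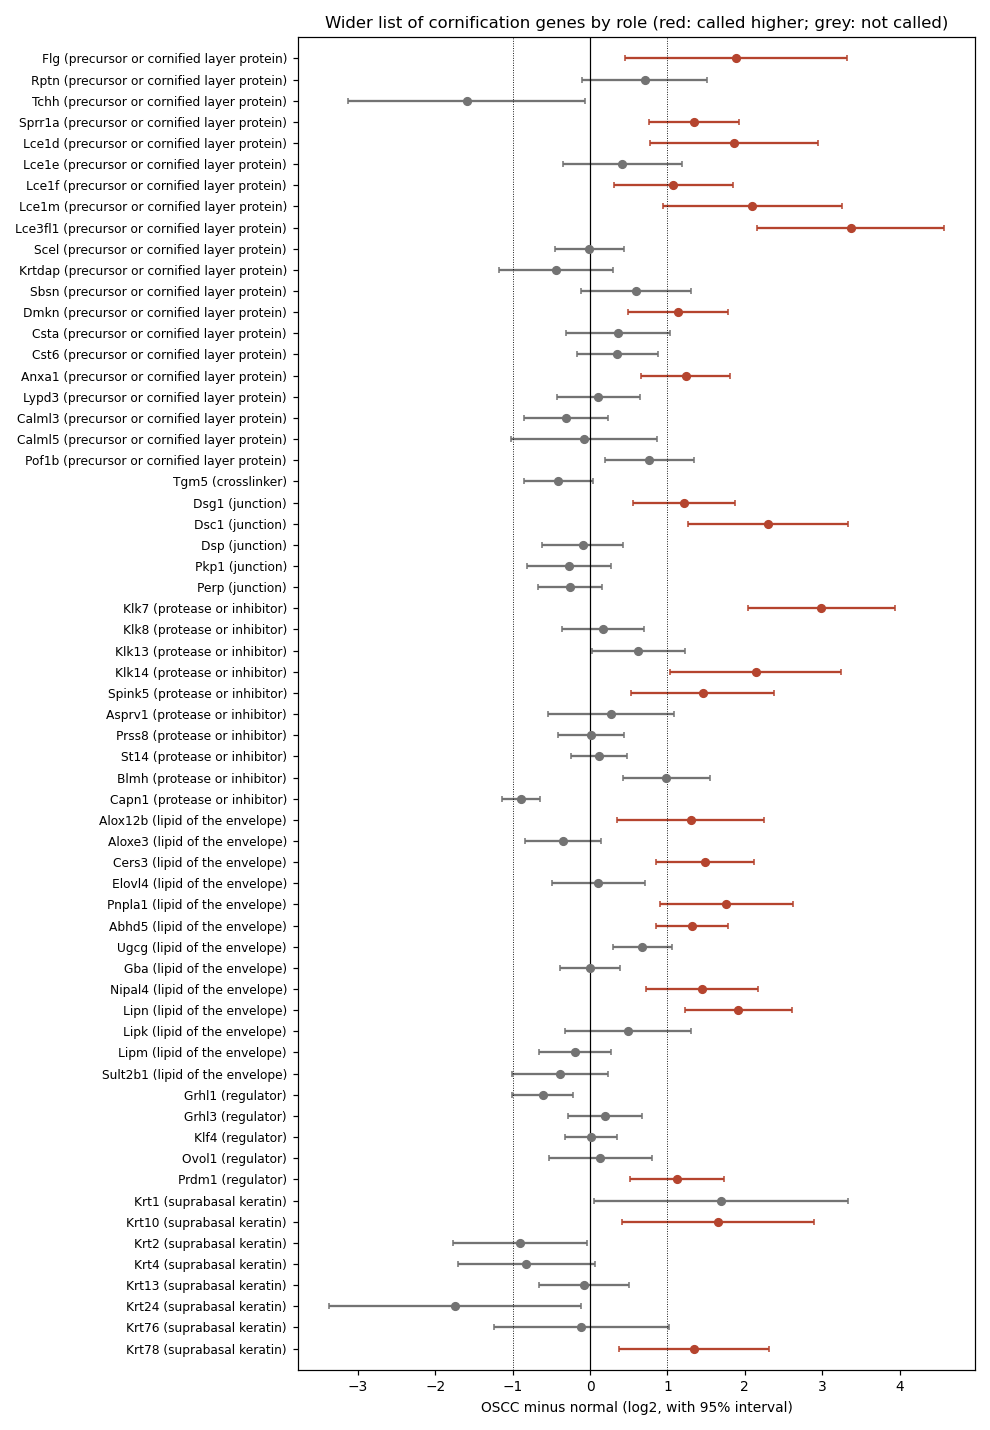
Log2 difference of OSCC from normal tissue for the 62 further genes of cornification, grouped by role, with points and bars giving the limma estimate and its 95% interval and dotted lines the 2-fold limits. The 22 genes called higher are red and include 8 precursors and 6 lipid genes, while no gene was called lower.

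Ivl, Lor, Sprr1b and Sprr3, 4 of the 10 genes, lie in the epidermal differentiation complex on chromosome 2. From the Lor probe to that of Tchh, over 1580 kb of assembly rn4 (chr2:184953840-186533876), the array holds 32 probes. Of these 15 were called higher in OSCC (46.9%), none lower, against 6.86% higher over the whole array. Of the 21 probes well above background on all arrays 13 were called higher, 61.9% against 5.42% of all such probes. The region was chosen with these values known, so the shares are a description. They include Sprr1b, Sprr3 and the Lce genes already given, while Lor, Ivl, Rptn and Tchh in the same region were not called, at 0.96, 0.49, 0.71 and -1.59. The 6 probes above background on no array had a median difference of -0.62.

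**Figure D5:**
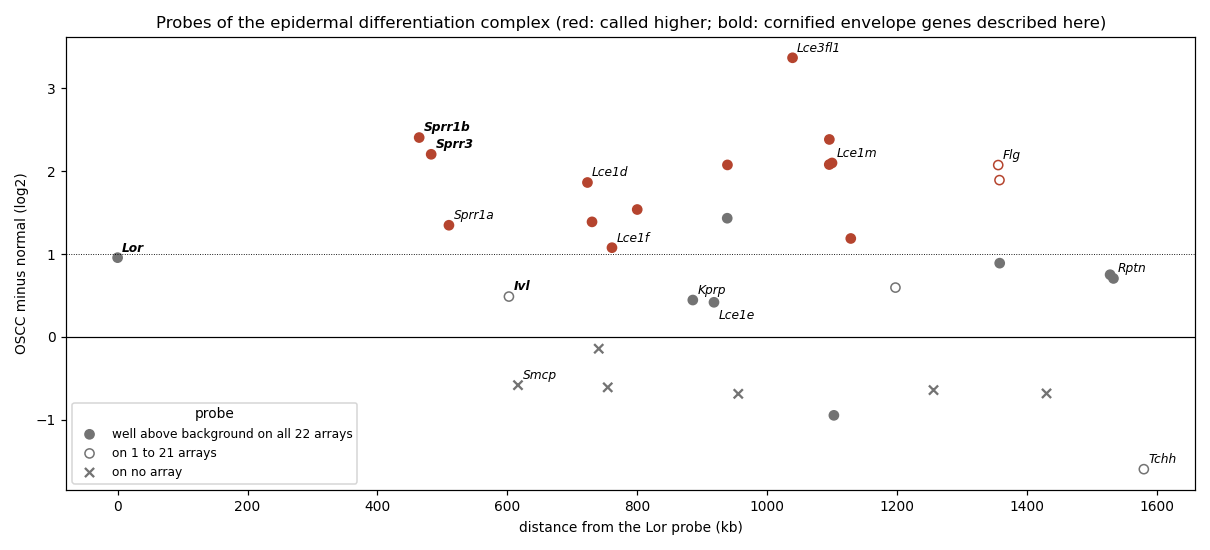
Log2 difference of OSCC from normal tissue for the 32 probes between the Lor and Tchh probes against the distance from the Lor probe in kb, with filled circles for probes well above background on all 22 arrays, open circles for those above it on some, crosses for those above it on none, and the dotted line at 2-fold. The 15 red probes called higher are spread from the Sprr genes to Flg, and Tchh at the far end has the lowest value, -1.59.

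The genes whose within-pair differences were most like those of each of the 10 were sought among 13340 other symbols by Pearson's r over the 11 pairs. By rule, the first for each gene and any found for more than 1 are named. They were Serpinb12, a serine protease inhibitor, for Lor (r = 0.99), Dmkn for Cnfn (0.97), Aurkc, an aurora kinase, for Sprr1b (0.97), and Slpi, a secreted protease inhibitor, for Sprr3 (0.97). Further genes were Fam110a for Tgm1 (0.98), Tprg1 for Tgm3 (0.97), Aim1l for Evpl (0.95) and Slc6a19, an amino acid transporter, for Casp14 (0.95). Rptn, which encodes repetin of the epidermal differentiation complex, stood among the first 3 for both Ivl (0.97) and Casp14 (0.94). For Ivl and Ppl the first was a transcript with no symbol on the array, and another such transcript was shared by Lor and Ppl. The values are ranks of likeness among many genes and carry no test.

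Markers of other cell types differed between the tissues as well. Of the basal keratinocyte list 2 of 8 genes rose and 1 fell, and of the epithelial junction list 1 of 7 rose and none fell, with median differences of 0.10 and 0.28. Their linear sums ran from 240 to 375 and from 49.8 to 117 in normal tissue, and from 35.1 to 544 and from 20.8 to 127 in OSCC. When the arrays were centred on the basal list instead of the 75th percentile, 5 of the 10 genes were called higher, Tgm1 and Ppl joining the 3, and centred on the junction list Sprr1b and Sprr3 were called higher and Evpl lower.

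Of the filiform papilla list 9 of 10 genes fell, with sums from 7.43 to 215 in normal tissue and from 0.329 to 67.1 in OSCC. Of skeletal muscle 8 of 10 fell, with sums from 1076 to 2187 and from 76.7 to 2664. All 7 serous gland genes rose, with sums from 0.212 to 2.87 and from 2.53 to 6305. Of neutrophil genes 6 of 8 rose (1.44 to 5.21 and 2.53 to 399), of macrophage genes 5 of 8 (15.8 to 37.3 and 21.1 to 73.0), of lymphocyte genes 5 of 7 (0.634 to 2.27 and 0.904 to 8.27) and of fibroblast genes 5 of 6 (53.2 to 94.2 and 49.5 to 440). No endothelial gene of 6 was called. The filiform genes thus fell, whereas none of the 10 envelope genes was called lower, and the part of tissue makeup in these differences was not tested.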

How the data were processed

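RNA of 11 pairs of tongue OSCC and adjacent tissue was measured on one-color Agilent rat arrays of 30367 probes. Per the file headers, the authors' Feature Extraction software subtracted background and removed spatial trends, and the deposited signal intensity is a linear brightness that differs in scale from array to array. A second deposited value is a ratio, the signal over the 75th percentile of the array, which was used as an alternative.

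Control spots and 9196 outlier spots (0.975%) were left out, the mean log2 signal was taken over the spots of a probe, and each array's 75th percentile was subtracted. No filter on dim probes was used. Precision is limited by the number of arrays. Genes were found by array symbol, updated through RefSeq (GRCr8), with the brightest probe for a gene with several. The tissues were compared by limma (3.58.1, R 4.3.3) in a model of rat and tissue, since each rat gave both pieces. Within a rat the deviations of the pieces from their tissue means had correlations from -0.21 to 0.24. On simulated data with these arrays' means and spread, the test called 96 of 100 probes given a shift of 2 log2 units and 2 unchanged probes, in a set of 30299 of which 200 were changed. The shifted probes were drawn at random, with independent noise and no slide or scan-day effect. The recovery therefore does not apply to the envelope genes, whose normal pieces varied more than those of a typical probe, nor to this slide layout.

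The 10 genes, the lists and the alternatives were chosen with earlier results of these data known. Named genes were the 10, every called gene of the further list, and the most alike genes. Genes of the further list that were not called but are named were picked after their values were seen. An item of the further list is not reported here. The alternatives were quantile, median and detected-probe scaling, normexp, the authors' ratio, a filter on dim probes, scan day, slide, no pairing, the methods' t-test, the mean of all probes, centring on marker lists, and leaving out pairs. Correlations used scipy 1.17.1.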

Additional observations from a re-analysis of the deposited data

How the results depend on the processing

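The main analysis called 3 of the 10 genes higher and 0 lower, 22 of 62 further genes higher and 0 lower, and 2083 probes higher and 2118 lower. With normexp background correction the counts were 1 and 12 genes higher, and 686 and 1015 probes. With scan day as a term they were 0 and 0 genes, and 0 and 3 probes, and Ivl was at -0.97, Lor at -1.11, Sprr3 at -0.11, Tgm3 at -1.05, Casp14 at -0.57 and Alox12b at -0.20. With slide as a random block they were 0 and 14 genes. Centred on basal markers 5 of the 10 were higher, and centred on junction markers 1 was lower, 14 further genes were higher and 5 lower, and Tgm3 was at -0.10. Scaling to the array median shifted the median of all probes from -0.24 to -0.44 and called 5 further genes lower. Without animals 21, 22 and 24, 1 of the 10 was higher, 3 further genes and 4285 probes were lower, and Ivl was at -0.48, Lor at -0.032, Tgm3 at -0.061 and Casp14 at -0.19. The cause of these shifts was not tested. Leaving out 1 pair gave 2 to 4 of the 10 higher, 0 lower, 16 to 24 further genes higher and 0 to 3 lower, and 1810 to 2282 probes higher and 1788 to 2586 lower. Without the replicate block, that is without the pairing, 3 of the 10 were higher and 2098 probes higher and 2129 lower. Quantile scaling, the authors' ratio, the dim filter and the methods' t-test with adjustment gave 4, 3, 3 and 3 of the 10 higher. Dim genes such as Ivl and Flg are limited by signal over background.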
